A study of Mus musculus with 8 samples.

Results

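Cells hold on to each other through adherens junctions, seal the gaps between them with tight junctions and exchange small molecules through gap junctions. The genes described here are the numbered cadherins, claudins and connexins, the zonula occludens scaffolds (Tjp genes), and Ocln, Jam2, F11r, Ctnna1, Ctnnb1 and Ctnnd1, chosen by the gene name each probe carries in the scanner files. They came to 70 names on 108 probes, among 27962 names on 41174 probes of the array: 23 cadherins, 21 claudins, 17 connexins, and 9 catenins and other tight junction proteins. The RNA came from R1 mouse embryonic stem cells, a pluripotent line from the early mouse embryo, for which the labels name no genetic change. In 4 samples the cells had spent 15 passages without LIF in medium holding 0.2 mM sodium butyrate, which blocks histone deacetylases. In the other 4 they were given LIF, the cytokine that stops such cells from differentiating, and no feeders. Gelatin-coated dishes and serum replacement medium were common to both groups, and no group had LIF and butyrate together or lacked both, so the addition of butyrate and the absence of LIF cannot be told apart. The labels do not make clear how many passages the LIF cells had, so time in culture may differ between the groups too. Each of 4 Agilent two-colour arrays paired 1 butyrate sample, labelled with Cy5, with the equally numbered LIF sample, labelled with Cy3. As no array had the dyes swapped, an effect of dye cannot be told apart from treatment in any ratio below. The labels call the samples independent without naming separate lines or derivations, so the p-values speak for the spread among these 4 pairs, part of which may be technical.

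Classical cadherins are transmembrane proteins that bind a cadherin of the same kind on the next cell. Inside the cell, p120-catenin (Ctnnd1) holds them at the membrane, and beta-catenin (Ctnnb1) and alpha-catenin (Ctnna1) tie them to actin. Claudins form the strands of the tight junction and set which ions pass, occludin (Ocln) and the junctional adhesion molecules (F11r, Jam2) lie beside them, and the zonula occludens proteins (the Tjp genes) anchor them. Connexins assemble into half-channels that dock between cells. Mouse embryonic stem cells grow as compact colonies held together by E-cadherin (Cdh1), and the trophectoderm, the first epithelium of the embryo, seals itself with claudins and zonula occludens proteins.

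Signals are given in units of the normalised, background-corrected channel intensity, to which 50 units were added, so that a probe with no signal reads a little above 50 and the fold of a dim gene is understated. On the second array 2 spots lay far below their own local background, the lowest at −4307 units in Cy3 and −508 in Cy5, and with them in the fit the background model of that array took a mean of −112.8 units in Cy3 and −40.5 in Cy5, against −8.31 to −15.7 and −10.8 to −11.3 on the other arrays. They were left out, after seeing the data, which gave −14.1 and −11.3. The channel medians were 110.0 to 111.4 units in butyrate and 62.8 to 66.0 in LIF before normalisation, and 62.7% to 63.9% of spots in butyrate and 57.9% to 61.2% in LIF were well above background. Markers of several cell types differed between the groups, where 42.8% of all genes tested were higher and 35.2% lower in butyrate. Of 5 pluripotency markers 4 were lower and 1 higher in butyrate (3 and 2 with centring on the median), with summed signals of 43493 to 49769.5 units in butyrate and 59464 to 65845 in LIF. Each sum is weighted to the brightest genes of its list. The brightest pluripotency marker, which supplied most of that sum, changed little, while 3 of the 4 lower ones fell at least 2-fold. All 7 trophoblast markers were higher (32791 to 36841 units in butyrate, 4760.4 to 5275 in LIF), as were 6 of 7 fibroblast markers tested (21395 to 22697 against 6342 to 6944), with Thy1 lower, 5 of 6 endoderm markers (1191 to 1269 against 740.1 to 805.3), with Gata4 not passing, and 3 of 5 neural markers, with Pax6 and Sox1 lower (7009.8 to 7575 against 4512 to 4935). In bulk RNA a change in the share of a cell type and a change in RNA per cell cannot be told apart, and the part these markers' cells have in the results below was not tested.

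Of the 70 genes, 44 were tested, those with a probe that either group showed well above background on 3 or 4 arrays. In butyrate 18 of them were higher, 15 lower and 11 did not pass an adjusted p of 0.05 in limma's moderated test of the 4 ratios against 0. Together that is 75% of the genes tested, where 78.0% of all 17312 genes on the array passed in either direction, 42.8% higher and 35.2% lower. Their median log2 ratio was 0.048, against 0.031 over all genes, and their median absolute log2 ratio was 0.34, against 0.26. Changes of at least 2-fold were found for 2 higher genes, Gjb2 and Tjp1, and 2 lower ones, of which Tjp3 is described below, where 5.33% of all genes were higher and 2.17% lower by that measure. The butyrate and LIF signals of 28 of the 44 (63.6%) did not overlap, where 68.9% of all genes did not. The gene families split differently by count: 7 cadherins of 12 tested were higher and 2 lower, 3 claudins of 11 were higher and 3 lower, 1 connexin of 12 was higher and 8 lower, and of the 9 other proteins 7 were higher and 2 lower. The median log2 ratios were 0.23 for the cadherins, −0.025 for the claudins, −0.15 for the connexins and 0.62 for the others. No test of the difference between families was made. Where each array was centred on its median without loess, the median of all genes moved to 0.32 and the connexins split into 6 higher and 3 lower, the cadherins into 10 and 1, the claudins into 7 and 2, and the other proteins stayed at 7 and 2. Relative to the median of all genes, 9 of the 12 connexins lay below it with loess and 9 with centring.

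**Figure D1:**
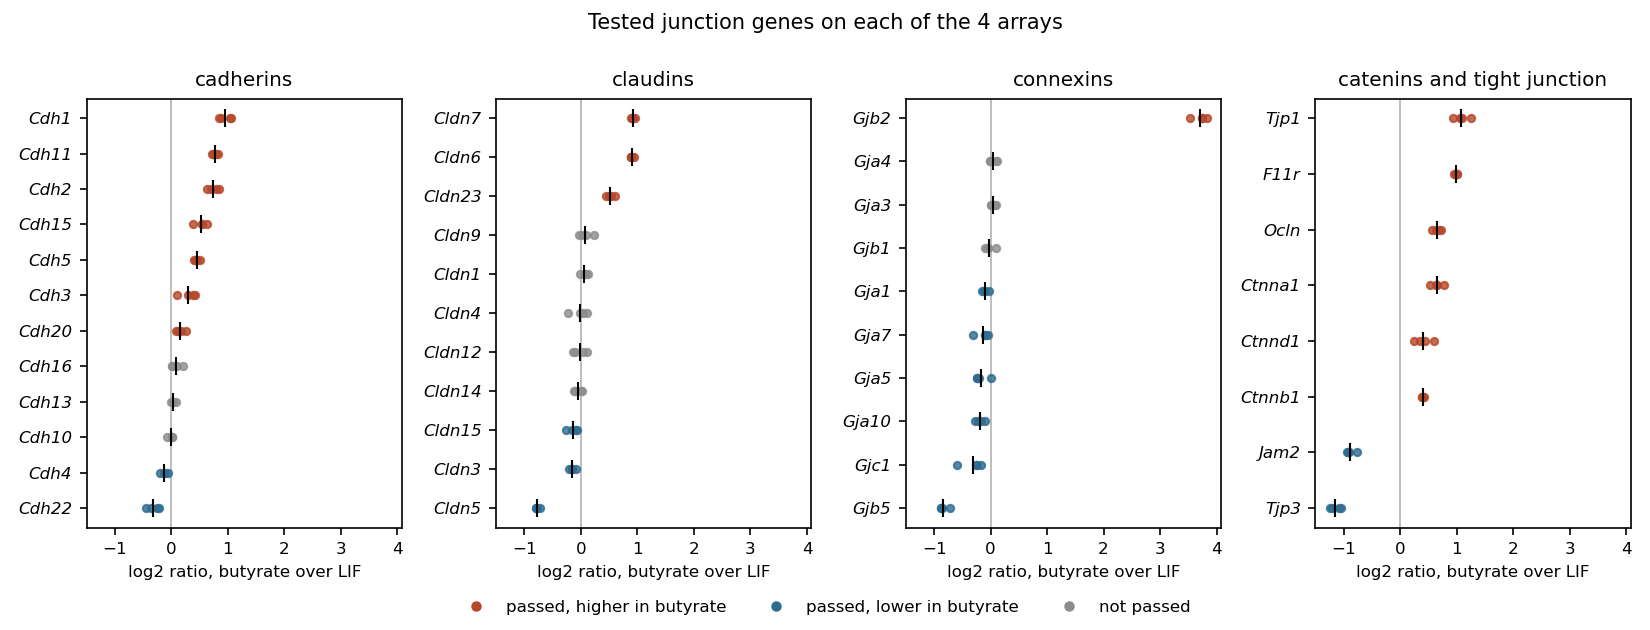
Log2 ratio of butyrate over LIF for 41 of the 44 tested junction genes, in 4 panels by family. Each point is 1 of the 4 arrays, the bar is their mean, and colour marks genes that passed higher in butyrate, passed lower, or did not pass. Gjb2 stands at 3.71, far to the right of the other connexins drawn, none of which passed as higher.

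Gjb2, which encodes the connexin Cx26 of epithelial gap junctions, had the largest ratio of the set. Its signal was 1330.5, 1326, 1285 and 1334 units in butyrate samples 1 to 4, against 99.1, 114, 90.7 and 99.7 units in LIF samples 1 to 4. The 4 butyrate samples lay close together and all far above the LIF samples (13.1-fold higher; log2 ratio 3.71 ± 0.12, SD, n = 4 arrays, adjusted p = 1.02e-10; 95% interval 3.60 to 3.82). The size of the ratio varied with how the dim LIF signal was treated, which was 9.05 to 17.9 units above its local background before correction, against 1647 to 1717 units in butyrate. The log2 ratio was 4.44 with 16 units added in place of 50, 5.64 with the scanner software's own ratio and 5.61 in the authors' value table, and it was 3.51 with the background model fitted on all spots, where the second array alone gave 2.72. A second Gjb2 probe, not well above background in LIF on any array, was higher in butyrate by at least 1.35-fold (adjusted p = 2.66e-06 over all probes).

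Of the other 11 connexins 8 were lower in butyrate and 3 did not pass. Gjb5, which encodes a connexin best known from skin, had 501, 474, 471 and 522 units in butyrate samples 1 to 4, against 915, 869.7, 864 and 863 units in LIF samples 1 to 4. These values did not overlap (1.78-fold lower; log2 ratio −0.84 ± 0.074, SD, n = 4 arrays, adjusted p = 6.21e-08), and its log2 ratio was −0.36 with centring on the median. Gja4, the Cx37 of blood vessels, which lies on the same chromosome, did not pass (log2 ratio 0.048 ± 0.07, adjusted p = 0.258), and passed as higher with centring on the median (0.42).

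Here and below, values in parentheses after a gene's name are log2 ratios of butyrate over LIF ± SD over the 4 arrays. Gja1, which encodes Cx43, the most widespread connexin, had 939, 1005, 921 and 969.7 units in butyrate samples 1 to 4, against 952, 1096, 982 and 1076 units in LIF samples 1 to 4. The groups overlapped and the ratio was small (log2 ratio −0.097 ± 0.056, SD, n = 4 arrays, adjusted p = 0.0297), and it no longer passed with the background model fitted on all spots (adjusted p = 0.0612). The gene named Gja7 in the files, now Gjc1 (Cx45), had a log2 ratio of −0.14 ± 0.11 (adjusted p = 0.0183). The one named Gjc1 in the files, now Gjd3, had 156, 153, 134 and 113 units in butyrate samples 1 to 4, against 184, 231, 161 and 127 units in LIF samples 1 to 4 and overlapping groups (log2 ratio −0.32 ± 0.19, SD, n = 4 arrays, adjusted p = 0.0016). Without the array as a block it did not pass (adjusted p = 0.0899). Gja10 had a log2 ratio of −0.20 ± 0.072 (adjusted p = 0.00109), and of −0.17 with centring on the median. Gja5, the Cx40 of heart and arteries, had tested probes that passed in opposite directions, the brighter at −0.17 ± 0.12 (adjusted p = 0.00921) and a dimmer one, not well above background in LIF on any array, higher by at least 1.10-fold (adjusted p = 0.0181 over all probes), so it is given no direction, though its brighter probe counts among the 8 lower connexins. With centring on the median the ratios of Gja5 (0.031), Gjc1 (0.0088), Gja1 (0.37) and Gja7 (0.27) lay above 0. Gjb1, the Cx32 of liver and nerve, did not pass (−0.028 ± 0.086), but did as lower by the scanner software's ratio (−0.24, adjusted p = 0.0417) and as higher with centring on the median (0.22). Gja3 was not well above background in LIF on any array. It did not pass (adjusted p = 0.222), but it passed as higher by the scanner software's ratio (0.61, adjusted p = 0.0221), in the authors' value table (0.50, adjusted p = 0.0479) and without background correction (0.17, adjusted p = 0.0016).

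The 2 promoters below are shown because Gjb2 and Gjb5 had the largest increase and, among connexins well above background in every sample, the largest decrease. They run from 250 bases before to 50 bases after the annotated start, 5′ to 3′ on the gene's own strand, from RefSeq on GRCm38.p6: Gjb2 at chr14:57104653-57104952, minus strand, and Gjb5 at chr4:127358115-127358414, minus strand. Capitals mark 2 motifs, the GC box GGGCGG, which Sp family factors bind, and the E-box CAGGTG, which Snail and Zeb repressors bind, each on either strand (CCGCCC and CACCTG).
Gjb2: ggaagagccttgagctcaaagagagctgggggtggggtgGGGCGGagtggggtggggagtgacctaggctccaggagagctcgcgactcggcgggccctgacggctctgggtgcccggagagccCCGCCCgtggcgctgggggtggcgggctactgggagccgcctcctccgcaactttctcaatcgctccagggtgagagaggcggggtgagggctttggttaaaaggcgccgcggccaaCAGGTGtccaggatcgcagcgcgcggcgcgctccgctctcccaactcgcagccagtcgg
Gjb5: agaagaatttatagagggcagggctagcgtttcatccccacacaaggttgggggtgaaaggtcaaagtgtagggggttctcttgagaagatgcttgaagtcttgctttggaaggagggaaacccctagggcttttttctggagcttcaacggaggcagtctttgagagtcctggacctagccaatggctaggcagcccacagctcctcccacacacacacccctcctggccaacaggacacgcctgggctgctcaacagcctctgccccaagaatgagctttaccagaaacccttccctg
The Gjb2 window held 2 GC boxes and 1 E-box, and the Gjb5 window held neither motif.

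**Figure D2:**
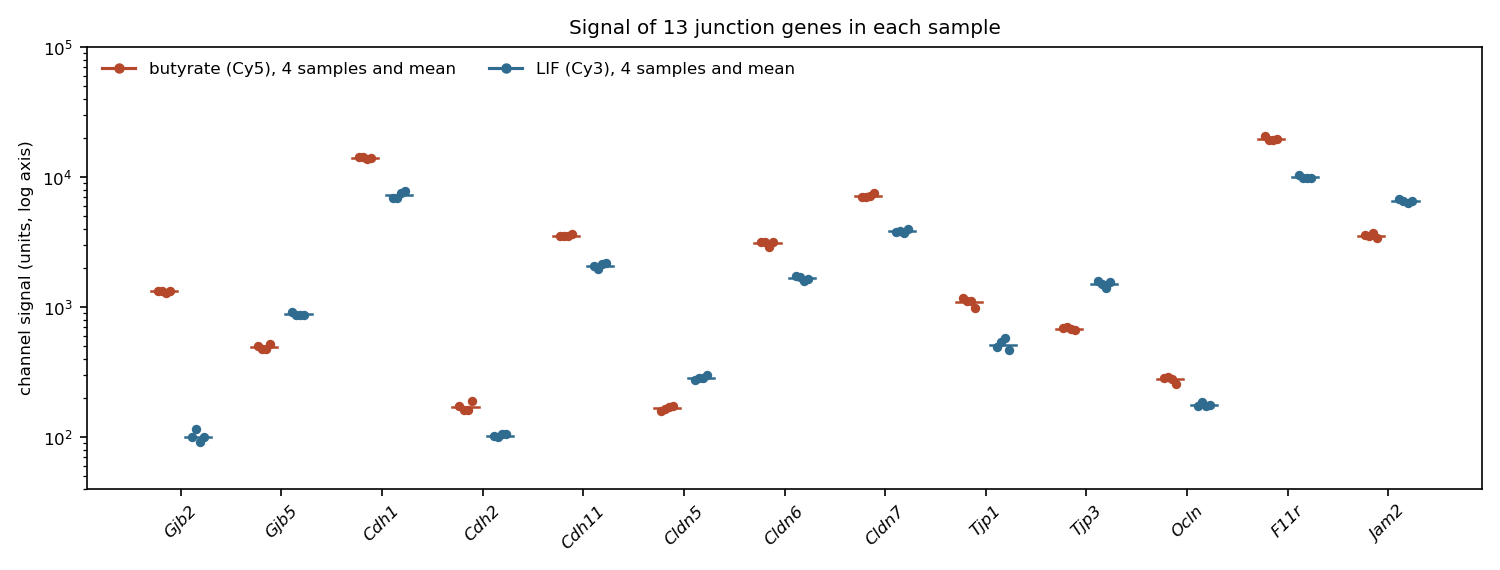
Channel signal in units, on a log axis, of 13 junction genes, with the 4 butyrate samples (Cy5) on the left of each pair, the 4 LIF samples (Cy3) on the right, and a bar for each group's mean. The groups are apart for all 13, with Gjb2 at 1285 to 1334 units in butyrate and 90.7 to 114 in LIF. Each gene is read by its own probe, so heights are not compared between genes.

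Among the cadherins E-cadherin and N-cadherin were both higher in butyrate. Cdh1, the E-cadherin of epithelia and of stem cell colonies, had 14357, 14200.4, 13679.8 and 14095 units in butyrate samples 1 to 4, against 6937, 6899.9, 7473 and 7812 units in LIF samples 1 to 4. Every butyrate sample lay above every LIF sample (1.94-fold; log2 ratio 0.95 ± 0.11, SD, n = 4 arrays, adjusted p = 6.96e-08). Cdh2, the N-cadherin of mesenchyme and nerve, had 174, 161, 163 and 188 units in butyrate samples 1 to 4, against 101, 99.2, 104 and 105 units in LIF samples 1 to 4. Again the groups did not overlap (1.67-fold higher; log2 ratio 0.74 ± 0.089, SD, n = 4 arrays, adjusted p = 2.17e-07), and the log2 ratio of this dim gene was 1.45 by the scanner software's ratio. Cdh11, a cadherin of mesenchyme, had 3535, 3489.6, 3522 and 3614 units in butyrate samples 1 to 4, against 2048, 1963, 2131 and 2180.1 units in LIF samples 1 to 4. The groups were 1.70-fold apart (log2 ratio 0.77 ± 0.05, SD, n = 4 arrays, adjusted p = 5.57e-08), and its other tested probes, dim in LIF, were higher by at least 1.30-fold and at least 1.28-fold. Cdh15, the M-cadherin of muscle, had 223, 190.4, 194 and 201 units in butyrate samples 1 to 4, against 153, 147, 133 and 130.3 units in LIF samples 1 to 4 and a 1.43-fold increase (log2 ratio 0.52 ± 0.10, SD, n = 4 arrays, adjusted p = 3.91e-06).

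Cdh5, the VE-cadherin of blood vessels, was not well above background in LIF on any array. It was at least 1.36-fold higher in butyrate by the mean ratio (adjusted p = 1.89e-06, 95% interval of the log2 ratio 0.37 to 0.52). The scanner software's log2 ratio for it was 3.08 and the authors' value table gave 3.01. A second Cdh5 probe, of the same transcript, was too dim to test (log2 ratio 0.035 ± 0.049), so the increase rests on 1 probe. Cdh3, the P-cadherin of the placenta and skin, had 549, 546, 590.3 and 559 units in butyrate samples 1 to 4, against 447, 417, 440.3 and 525 units in LIF samples 1 to 4. It passed (log2 ratio 0.30 ± 0.15, SD, n = 4 arrays, adjusted p = 0.000685), with the fourth array at 0.092 and the others at 0.30 to 0.42. Cdh20 had a log2 ratio of 0.16 ± 0.077 (adjusted p = 0.00463). The 2 that fell were Cdh22, not well above background in butyrate on any array and at least 1.25-fold lower (adjusted p = 0.000137; −1.80 on the log2 scale by the scanner software's ratio), and Cdh4, the R-cadherin of the retina and brain, whose groups overlapped (log2 ratio −0.13 ± 0.055, adjusted p = 0.0073). Cdh4 lay at 0.19 with centring on the median, and did not pass without the array as a block (adjusted p = 0.0548). Its probe is assigned to a cDNA record, and the probes for its RefSeq transcript were too dim to test. Cdh13 (0.034 ± 0.036) and Cdh10 (−0.015 ± 0.044) did not pass, and passed as higher with centring on the median (0.18 and 0.16). Cdh16, not well above background in LIF on any array, did not pass either (adjusted p = 0.0837), but did as higher without background correction (0.11).

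Of the 7 tested cadherins on chromosome 8 (Cdh1, Cdh3, Cdh5, Cdh11, Cdh13, Cdh15 and Cdh16), 5 were higher, and of the 5 on other chromosomes 2 were higher. All genes tested on chromosome 8 had a median log2 ratio of 0.29, which was 0.27 above that of the other autosomes. Chromosomes 11 and 19 lay 0.21 and 0.17 above the others, and the next autosome, chromosome 7, differed by −0.11. With each chromosome centred on the autosome median, an alternative chosen after seeing the data, Cdh1 kept a log2 ratio of 0.71, Cdh11 0.53, Cdh15 0.28 and Cdh5 0.21, and all 4 still passed, while Cdh3 came to 0.06 and did not (adjusted p = 0.324). Cdh13 (−0.21), and Cdh16, which is dim in LIF, then passed as lower. Cdh2, on chromosome 18, was at 0.79. What set these chromosomes apart was not tested.

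**Figure D3:**
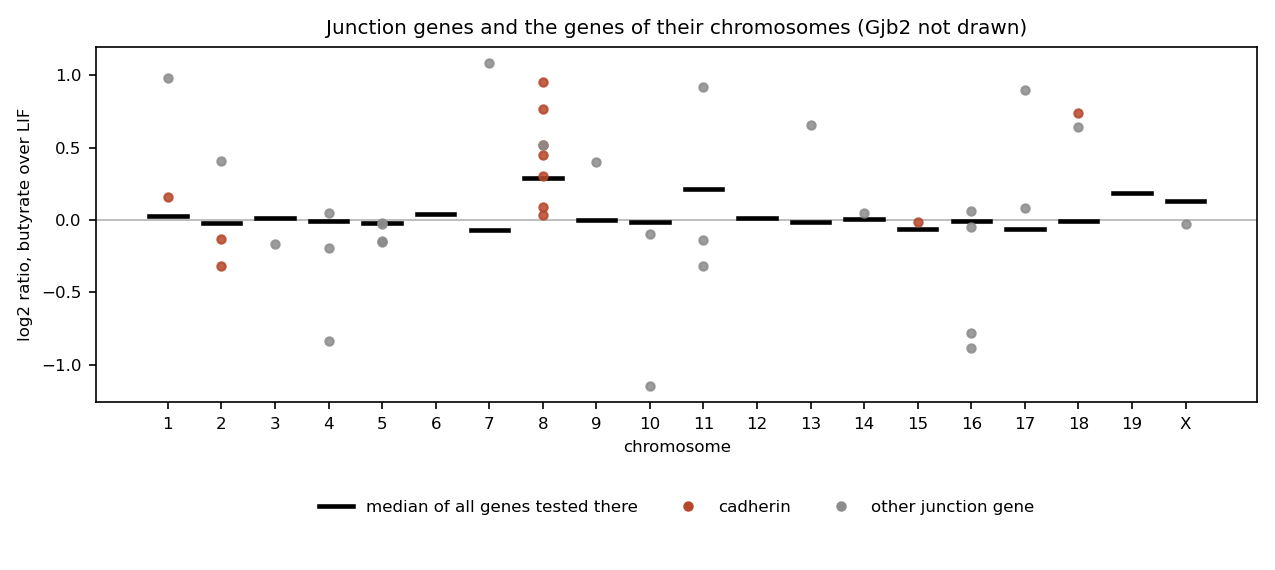
Log2 ratio of butyrate over LIF of the tested junction genes reported here, by chromosome, with cadherins coloured, other junction genes in grey, and a black bar for the median of all genes tested on that chromosome. Gjb2, at 3.71 on chromosome 14, is not drawn. The bar of chromosome 8, at 0.29, is the highest, and 5 of the 7 cadherins there passed as higher.

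Ctnna1, Ctnnb1 and Ctnnd1, catenins of the cadherin complex, were higher. Ctnna1, alpha-catenin, had 42078, 44374, 44036 and 43383 units in butyrate samples 1 to 4, against 27119.5, 25981, 28110.1 and 30164 units in LIF samples 1 to 4 (1.56-fold; log2 ratio 0.64 ± 0.10, SD, n = 4 arrays, adjusted p = 8.04e-07). Ctnnb1, beta-catenin, which also carries Wnt signals into the nucleus, had 11835, 12581, 12172 and 11454 units in butyrate samples 1 to 4, against 8992, 9378, 9259.8 and 8768 units in LIF samples 1 to 4. The spread of its ratio was the smallest of the set (1.32-fold; log2 ratio 0.40 ± 0.017, SD, n = 4 arrays, adjusted p = 2.4e-06). A second probe for the same transcript gave 0.28 ± 0.10, and another, which the files assign to a cDNA record and not to the RefSeq transcript, gave 1.49 ± 0.53 with 2.27 on the fourth array and 1.16 to 1.27 on the others. Ctnnd1, p120-catenin, had 274, 308, 367 and 334 units in butyrate samples 1 to 4, against 232, 226, 242 and 263 units in LIF samples 1 to 4. Its lowest butyrate sample lay just above its highest LIF sample (log2 ratio 0.41 ± 0.15, SD, n = 4 arrays, adjusted p = 0.000107). Among 17 tested genes of a wider adherens junction list, 9 were higher and 6 lower, where 42.8% and 35.2% of all genes were (list median 0.23, against 0.031 over all genes). The increases included Lmo7, which binds afadin and alpha-actinin (1.23 ± 0.11), and vinculin, Vcl, which is recruited by stretched alpha-catenin (2.30-fold, adjusted p = 6.25e-09). The decreases were led by Ctnnal1, a relative of alpha-catenin (−0.68 ± 0.024), Pvrl3, now Nectin3 (−0.33 ± 0.10), and Ctnnbip1, an inhibitor of beta-catenin (−0.30 ± 0.026). Jup, plakoglobin, a catenin that also binds the cadherin tail, did not pass (−0.062 ± 0.17, adjusted p = 0.351). With centring on the median 16 of the 17 were higher and Ctnnal1 alone passed as lower.

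The claudins split. Cldn6 and Cldn7 were higher by nearly the same amount and with little spread. Cldn7, of many epithelia, had 7066, 7027, 7142 and 7583 units in butyrate samples 1 to 4, against 3770.4, 3807, 3686 and 4011 units in LIF samples 1 to 4 (1.89-fold; log2 ratio 0.92 ± 0.029, SD, n = 4 arrays, adjusted p = 1.25e-08). Cldn6, a claudin of embryonic epithelia, had 3158, 3137, 2911 and 3143 units in butyrate samples 1 to 4, against 1716, 1707, 1569.9 and 1644 units in LIF samples 1 to 4 (1.86-fold; log2 ratio 0.90 ± 0.027, SD, n = 4 arrays, adjusted p = 1.38e-08). In both, each butyrate sample exceeded each LIF sample by a wide margin. Cldn7 lies on chromosome 11, and came to 0.74 with each chromosome centred. Cldn23, on chromosome 8, was not well above background in LIF on any array and was at least 1.43-fold higher in butyrate (adjusted p = 1.21e-06; 1.97 on the log2 scale by the scanner software's ratio). Cldn5, the main claudin of blood vessels in the brain, fell the most: it had 158, 164, 170.5 and 172 units in butyrate samples 1 to 4, against 275, 282, 282 and 300.3 units in LIF samples 1 to 4. The groups did not overlap (1.71-fold lower; log2 ratio −0.78 ± 0.037, SD, n = 4 arrays, adjusted p = 4e-08; −1.25 by the scanner software's ratio and −0.38 with centring on the median).

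Cldn3 and Cldn4, adjacent genes for claudins of simple epithelia, differed little between the groups. Cldn3 had 694, 689, 691 and 702 units in butyrate samples 1 to 4, against 804, 768, 732 and 787 units in LIF samples 1 to 4, without overlap but with a small change (log2 ratio −0.15 ± 0.054, SD, n = 4 arrays, adjusted p = 0.00279) that became 0.32 with centring on the median, close to the median of all genes, 0.32. Cldn4 had 1944, 2141, 1932 and 2082 units in butyrate samples 1 to 4, against 2269.8, 1993, 1891 and 2094 units in LIF samples 1 to 4, with overlapping groups (log2 ratio −0.025 ± 0.14, 95% interval −0.14 to 0.093, adjusted p = 0.676). Cldn15, of the gut, passed by little (−0.15 ± 0.093, adjusted p = 0.00917), and without the second array it did not (adjusted p = 0.0511). Cldn9, the neighbour of Cldn6, was at 0.08 ± 0.11 and did not pass, nor did Cldn12 (−0.026 ± 0.11) or Cldn14, of the inner ear (−0.052 ± 0.074). Cldn14 passed as lower by the scanner software's ratio (−0.39, adjusted p = 0.00378), and with centring on the median Cldn4 (0.41), Cldn9 (0.52) and Cldn12 (0.44) passed as higher. Cldn1, the claudin of skin, was not well above background in LIF on any array. It did not pass (adjusted p = 0.152), but it passed as higher by the scanner software's ratio (1.24, adjusted p = 0.000148), in the authors' value table (1.08, adjusted p = 0.000213) and without background correction (0.18, adjusted p = 0.00115).

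Promoters of Cldn6, at chr17:23679115-23679414, plus strand, and Cldn5, at chr16:18776597-18776896, plus strand, are shown as those of the claudins that rose and fell, in the same window and build and with the same motifs in capitals.
Cldn6: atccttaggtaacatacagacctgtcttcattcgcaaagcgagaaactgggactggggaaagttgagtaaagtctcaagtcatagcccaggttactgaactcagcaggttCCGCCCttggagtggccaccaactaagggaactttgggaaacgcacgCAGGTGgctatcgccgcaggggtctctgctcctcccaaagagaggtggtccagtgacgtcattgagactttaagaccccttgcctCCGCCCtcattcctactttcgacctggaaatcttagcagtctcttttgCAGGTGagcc
Cldn5: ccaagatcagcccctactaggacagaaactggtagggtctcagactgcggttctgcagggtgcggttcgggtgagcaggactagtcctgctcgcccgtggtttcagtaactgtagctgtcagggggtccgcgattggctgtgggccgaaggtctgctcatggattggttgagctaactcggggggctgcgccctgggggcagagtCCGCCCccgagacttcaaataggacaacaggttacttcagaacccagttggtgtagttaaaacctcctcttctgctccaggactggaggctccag
The Cldn6 window held 2 GC boxes and 2 E-boxes, and the Cldn5 window held 1 GC box and no E-box.

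Tjp1 and Tjp3, scaffolds of the zonula occludens, changed in opposite directions. Tjp1, which encodes ZO1, had 1162, 1107, 1105 and 986 units in butyrate samples 1 to 4, against 490.3, 533, 577 and 462 units in LIF samples 1 to 4. All butyrate samples exceeded all LIF samples, by 2.12-fold on average (log2 ratio 1.08 ± 0.13, SD, n = 4 arrays, adjusted p = 5.71e-08). Its second tested probe, of the same transcript, gave a log2 ratio of 0.23 ± 0.062, so the 2-fold change rests on 1 probe. Tjp3, which encodes ZO3, a scaffold restricted to epithelia, had 684, 698, 682 and 659 units in butyrate samples 1 to 4, against 1581, 1489, 1408 and 1565 units in LIF samples 1 to 4. All butyrate samples lay below all LIF samples (2.22-fold lower; log2 ratio −1.15 ± 0.095, SD, n = 4 arrays, adjusted p = 1.56e-08). Its log2 ratio was −0.68 with centring on the median, where it no longer reached 2-fold.

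Of the membrane proteins beside the claudins, occludin and F11r were higher and Jam2 was lower. Ocln had 284, 288, 280.2 and 257 units in butyrate samples 1 to 4, against 172, 185, 174 and 175 units in LIF samples 1 to 4 (1.57-fold higher; log2 ratio 0.65 ± 0.073, SD, n = 4 arrays, adjusted p = 3.02e-07). F11r, junctional adhesion molecule A of epithelia, had 20753, 19129.7, 19264 and 19635 units in butyrate samples 1 to 4, against 10393, 9851, 9782 and 9824 units in LIF samples 1 to 4 and a narrow spread (1.98-fold higher; log2 ratio 0.98 ± 0.02, SD, n = 4 arrays, adjusted p = 7.26e-09). Jam2, junctional adhesion molecule B, had 3559, 3492, 3686 and 3400.1 units in butyrate samples 1 to 4, against 6757, 6550.4, 6280.0 and 6500.3 units in LIF samples 1 to 4. These groups did not overlap (1.85-fold lower; log2 ratio −0.88 ± 0.078, SD, n = 4 arrays, adjusted p = 4.77e-08), its dimmer probe gave −0.18 ± 0.091, and with centring on the median the log2 ratio was −0.49. Jam3, which encodes the binding partner of Jam2's product and belongs to a wider list of tight junction scaffold and polarity genes, was at 0.78 ± 0.019 (adjusted p = 3.02e-08). Of the 23 tested genes of that list, 16 were higher and 4 lower, where 42.8% and 35.2% of all genes were (list median 0.47, against 0.031 over all genes). Amotl2, an angiomotin that binds YAP (1.61 ± 0.077), Pard6b, of the apical polarity complex (1.34 ± 0.067), and Cgnl1, paracingulin (1.33 ± 0.11), rose the most. Sympk (−0.34 ± 0.032), Crb3, the apical determinant Crumbs (−0.24 ± 0.12), and Esam1 (−0.20 ± 0.11) fell the most. The 4 decreases turned positive with centring on the median, where 22 of the 23 were higher. Crb3 was then at 0.22, against the median of 0.32.

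Promoters of Tjp1, at chr7:65371195-65371494, minus strand, and Tjp3, at chr10:81291532-81291831, minus strand, the first of its 2 annotated starts, are shown for scaffolds that changed at least 2-fold in opposite directions.
Tjp1: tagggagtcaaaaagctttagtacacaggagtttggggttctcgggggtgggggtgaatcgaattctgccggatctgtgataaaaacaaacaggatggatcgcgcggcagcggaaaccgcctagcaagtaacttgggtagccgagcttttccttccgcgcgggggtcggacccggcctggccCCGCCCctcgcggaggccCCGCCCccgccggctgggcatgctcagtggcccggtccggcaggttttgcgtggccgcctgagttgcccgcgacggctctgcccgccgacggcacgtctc
Tjp3: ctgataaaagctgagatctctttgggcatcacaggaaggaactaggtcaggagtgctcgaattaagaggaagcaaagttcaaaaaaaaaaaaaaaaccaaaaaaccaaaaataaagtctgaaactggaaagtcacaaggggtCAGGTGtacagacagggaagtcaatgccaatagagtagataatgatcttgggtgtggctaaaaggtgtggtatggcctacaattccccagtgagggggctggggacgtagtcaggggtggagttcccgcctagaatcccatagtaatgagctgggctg
The Tjp1 window held 2 GC boxes and no E-box, and the Tjp3 window held no GC box and 1 E-box. Of the 70 genes, 47 matched a promoter in the table. A GC box lay in at least 1 window of 8 of the 10 higher genes that matched, of 5 of the 9 lower, of 6 of the 8 that did not pass and of 7 of the 20 not tested. Over all 32851 windows the share was 35.7%. An E-box lay in windows of 5 of the 10 higher, 2 of the 9 lower, 4 of the 8 not passed and 3 of the 20 not tested, against 20.2% of all windows. Genes with several annotated starts had more than 1 window in which to match, and no binding was measured.

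**Figure D4:**
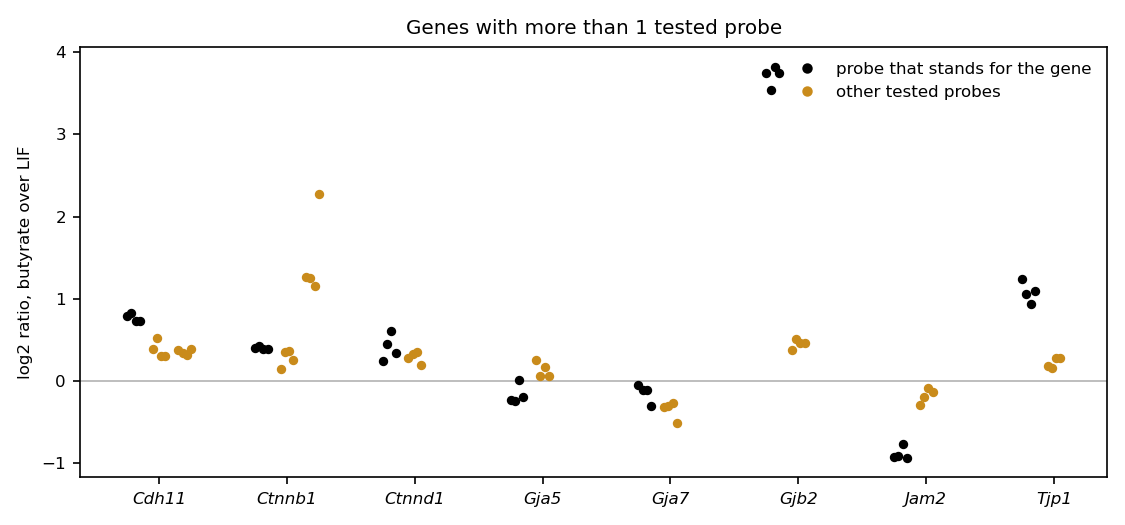
Log2 ratio of butyrate over LIF on each of the 4 arrays for 8 of the 9 junction genes with more than 1 tested probe. Black points are the probe that stands for the gene, ochre points its other tested probes. The probes of each gene but Gja5 share their sign, and those of Gja5 have opposite signs.

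The second probe of Gjb2, the dimmer ones of Cdh11 and that of Gja5 were not well above background in LIF, so their ratios are only bounds in the plot of probes. Among probes well above background in both groups the ratio of a gene varied with the probe read. In 8 of the 9 genes with more than 1 tested probe, dim ones included, all probes had the same sign, with Gja5 the exception. The brightest probe, which stands for the gene, gave the larger change for Ctnnd1, Jam2 and Tjp1, and the smaller one for Gja7, whose other probe gave −0.35 ± 0.11.

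Genes with a role next to the junction were read from lists of their own. The counts below stand beside 42.8% higher and 35.2% lower over all genes. Among 10 tested genes listed as transcription factors of the epithelial to mesenchymal transition, 6 were higher and 2 lower. Several such factors repress Cdh1 in other settings. The list median was 0.25, against 0.031 over all genes. Tcf3 in that list was meant as Tcfe2a (E2A), but the gene so named on the array lies on chromosome 6 and may be another factor. It did not pass (0.12 ± 0.14, adjusted p = 0.0562) and is kept in the counts and the median. Twist2 (1.55 ± 0.084), Zfhx1b, now Zeb2 (1.32 ± 0.15), and Snai1, Snail (1.23 ± 0.10), rose the most, Snai2, Slug, was at 0.52 ± 0.079 (adjusted p = 1.67e-06), and Zfhx1a, now Zeb1 (−0.45 ± 0.064), and Twist1 (−0.27 ± 0.052) fell. With centring on the median neither decrease passed. With each chromosome centred 5 of the 10 were higher and 4 lower, as Snai3 (−0.12) and Foxc2 (−0.15), both on chromosome 8, then passed as lower. Prrx1, 1 of the 6 higher with loess, and Foxc2 were not well above background in LIF on any array. Among 12 tested regulators and surface proteins of epithelia 6 were higher and 5 lower (list median 0.14). Rbm35b, now Esrp2, an epithelial splicing factor on chromosome 8 (0.89 ± 0.043), Elf3 (0.71 ± 0.072) and the membrane protease St14 (0.64 ± 0.061) rose the most. Spint2, an inhibitor of such proteases (−0.76 ± 0.038), Grhl1 (−0.50 ± 0.044) and Klf5 (−0.32 ± 0.035) fell the most, and Grhl2, a grainyhead activator of Cdh1 (−0.19 ± 0.12, adjusted p = 0.0041), and Tacstd1, now Epcam, an adhesion molecule of epithelia (−0.20 ± 0.043, adjusted p = 0.000414), were slightly lower. With centring on the median Spint2 alone passed as lower, Grhl2 was at 0.25 and Tacstd1 at 0.20. Of 15 tested protocadherins and other relatives of the cadherins (list median 0.10), 8 were higher, led by Pcdh18 (1.29 ± 0.12), Pcdh8, also known as paraxial protocadherin (0.76 ± 0.096), and Pcdh19 (0.44 ± 0.12). The 5 lower were led by Celsr1, a planar polarity receptor (−1.24 ± 0.14), Clstn3, a calsyntenin (−1.16 ± 0.054), and Pcdh21, now Cdhr1 (−0.83 ± 0.038), which were lower with centring on the median too. The pannexin Panx1, a channel protein unrelated to connexins in sequence, did not pass (−0.068 ± 0.073, adjusted p = 0.128). It passed as lower by the scanner software's ratio (−0.13, adjusted p = 0.036) and in the authors' value table (−0.13, adjusted p = 0.0406). With centring on the median it passed as higher at 0.36, near the median of all genes.

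**Figure D5:**
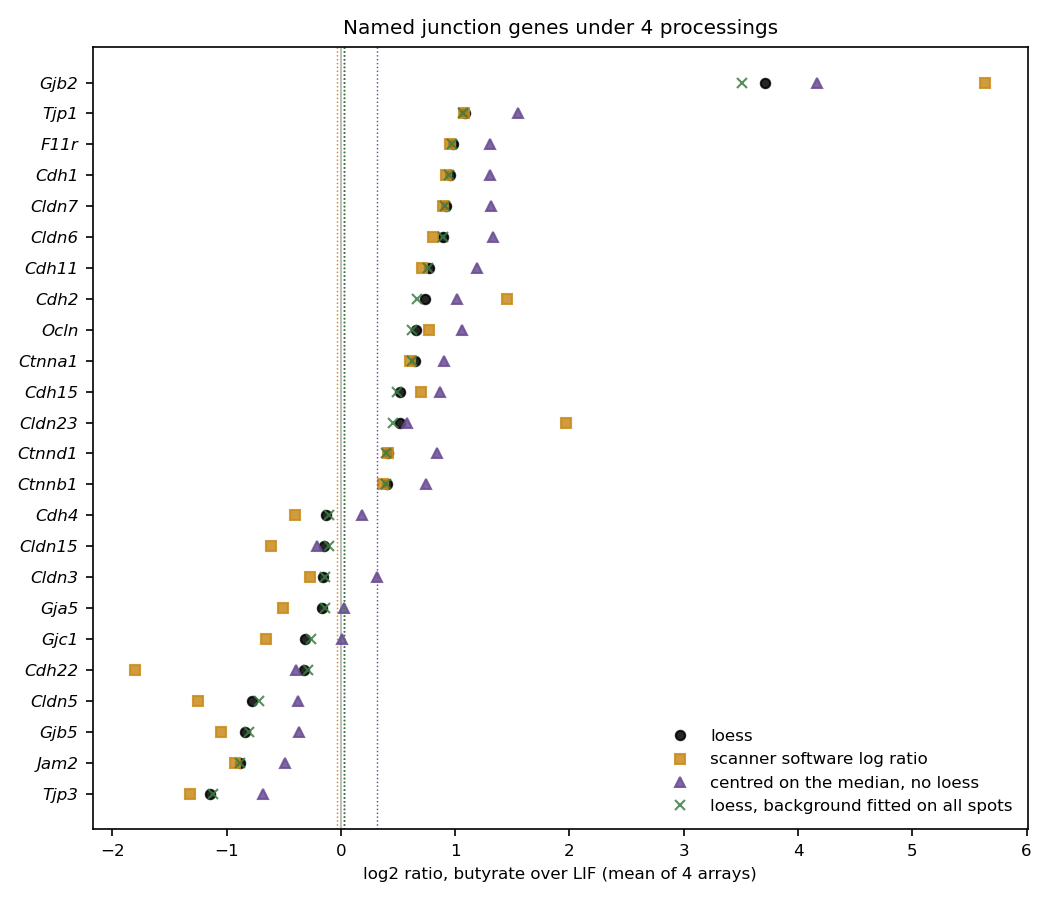
Log2 ratio of butyrate over LIF, mean of 4 arrays, of 24 named junction genes under 4 processings: loess normalisation, the scanner software's own ratio, centring on the median without loess, and loess with the background model fitted on all spots. Dotted lines mark the median of all genes under each. Centring moves the genes to the right with the median, at 0.32, and the scanner ratio spreads the dim genes Gjb2, Cldn23 and Cdh22 outward.

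The other 26 genes had no probe above the limit for testing, 23 of them none well above background on any array, among them Cdh6, Cdh7, Cdh8, Cdh9, Cdh12, Cdh17, Cdh18, Cdh19, Cdh23 and Cdh26, Cldn8, Cldn10, Cldn11, Cldn13, Cldn16, Cldn17, Cldn18 and Cldn22, and Gja6, Gja9, Gja12 and Gjb6. Cdh24, Cldn2 and Cldn19 reached it on 2 arrays in butyrate, and on 0, 1 and 1 arrays in LIF. For these genes the arrays give no change. Gjb6, the Cx30 that is the neighbour of Gjb2 and is often expressed with it, was thus not detected in either group, nor were Cldn18 of lung and stomach or Cldn11 of myelin and testis.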

How the data were processed

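Both samples of an array share 1 scan, so the 8 deposited scanner files are 4 distinct ones, read with Agilent Feature Extraction 9.1 per the submitters' processing notes. Deposited there are, for every spot and channel, the mean intensity and the median intensity of the background. Per the file headers, the software's log10 ratio of Cy5 over Cy3 had its background removed and its dyes balanced. The values in the authors' table are log2: against the log2 of its own channel's processed signal the columns correlated at 0.999559 or more, and since all medians are 6.487 the samples were put on a common scale.

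Background correction (normexp, offset 50) and loess within arrays, with control spots at weight 0, were run in limma 3.58.1 under R 4.3.3. The normexp parameters were fitted without spots more than 100 units below their local background (2 spots, set to missing). This departs from the planned fit on all spots, was chosen after seeing the data, and the planned fit is kept as an alternative. The 14 outlier spots were made missing too, and saturated spots were kept (none belonged to these genes). Channel signals are means after Aquantile. A gene is the file's gene name, read by its brightest probe well above background on at least 3 of 4 arrays in either channel. Each gene's 4 log2 ratios (butyrate over LIF) were tested against 0 by limma's lmFit and eBayes, and p-values were adjusted over 17312 genes by Benjamini-Hochberg. A change is "at least N-fold" where 1 group stayed near background throughout (no array well above it): the bright group's mean was set against the higher of the dim probe and the lowest signal well above background, from channel values open to dye bias. For Cdh5, Cldn23, Cdh22 and the dim Cdh11 probes the dim probe was the higher. Their value is thus the plain fold of the means, not a lower confidence limit, and other processings can give less.

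Named are genes passing with at least a 2-fold change, Gjb2, Cdh1, Cdh2, the Tjp genes, Ocln, Jam2, F11r and the catenins, up to 4 largest increases and decreases per family, genes with opposed probes, and up to 3 per list in each direction with Snai1, Snai2, Zeb1, Zeb2, Grhl2, Epcam and Jup. Gja1, Gja4, Gja7, Jam3, Panx1 and the other remaining members were named after their values were seen. Genes and lists were chosen with earlier results of these data known. The pairing comes from the shared array: after taking out the group means, samples of 1 array correlated at 0.274 to 0.399, and samples of different arrays at −0.265 to 0.0055. Where samples of 1 array correlate, taking out a mean over 4 samples by itself pulls the values of different arrays below 0. With 1 slide and 1 scan day there was no batch to test, and precision is limited by how few arrays there are. A few genes that meet this rule or belong to the set are not reported here, though the counts include them. The limma fit and its p-value adjustment were tested on simulated log2 ratios, but the steps before them were not. Promoter sequences are RefSeq's, on GRCm38.p6. Plots used matplotlib 3.10.9 under Python 3.11.15.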

Additional observations from a re-analysis of the deposited data

Results flagged for a closer look

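In 7 of 72 groups of 4 values of the named genes, 1 sample or array stood apart from the other 3, where chance gives about 1 in 20. The gap exceeded Dixon's 95% limit for the butyrate signal of Cldn6 in replicate 3 (2911 units, the others 3137 to 3158) and of Gjb2 in replicate 3 (1285, the others 1326 to 1334). It also did for the LIF signal of Gjb5 in replicate 1 (915, the others 863 to 869.7) and of F11r in replicate 1 (10393, the others 9782 to 9851). Among log2 ratios it did for Gja5 on array 3 (0.0085, the others −0.24 to −0.20), Gjb5 on array 4 (−0.72, the others −0.88 to −0.87) and Jam2 on array 3 (−0.77, the others −0.93 to −0.91). No array holds more than 4 of the 7, and each direction was the same without any 1 array.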

How the results depend on the processing

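Of the named genes' ratios under the alternatives, 445 kept direction and call. Centring on the median put the median of all genes at 0.32 and the share of higher genes among those passing at 82.9% (54.9% with loess), and 4 ratios reversed: Cdh4 (0.19), Cldn3 (0.32), Gja5 (0.031) and Gjc1 (0.0088). Of these reversed ratios, those of Gja5 and Gjc1 no longer passed limma's moderated test (adjusted p = 0.538 and 0.877). Relative to the median of all genes, 36 of 44 genes stayed on the same side. Among all genes on the array that passed, 47.3% were higher by the scanner software's ratio, and 45.95% by the authors' values. Under either of these, all 44 junction genes kept the side of the median they had with loess. Of the 44 genes, 30 were higher and 8 lower with centring. Those at least 2-fold higher, 2 in the main setting, were 6 with the scanner ratio, 10 with centring, 1 with the mean of a gene's tested probes and 6 with the authors' table. Those at least 2-fold lower, 2 in the main setting, were 5 with the scanner ratio, 1 with centring, 1 with a strict filter on dim probes and 5 with the authors' table. The causes were not tested. Apart from the 4 reversals, 5 of the named genes' calls were lost. They are given beside each gene except for Gja5 with the mean of its probes (−0.016) and Cdh4 with each chromosome centred (−0.082). The replicate block is the array: without it 18 genes were higher and 12 lower. With the background model fitted on all spots, 18 were higher and 14 lower, and the ratios of the second array were nearer 0 for dim genes: 2.72 for Gjb2, 0.40 for Cdh2 and −0.55 for Cldn5. Without each array in turn the counts were 18 to 19 higher and 13 to 15 lower. Signal near background limits Cdh22, Cdh5 and Cldn23 to a bound or a small ratio.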
